A study of Mus musculus with 16 samples.

Results

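Oxidative phosphorylation genes were followed while mouse embryonic stem cells left naive pluripotency. The set held 98 of the 27179 genes in the count table, chosen by symbol: 13 genes encoded on the mitochondrial genome (7 subunits of complex I, CYTB of complex III, COX1, COX2 and COX3 of complex IV, and ATP6 and ATP8 of complex V) and 85 nuclear genes (40 of complex I, 4 of complex II, 8 of complex III, 16 of complex IV and 17 of complex V). The symbol rule left out 8 Ndufaf assembly factors and 5 pseudogenes, and it did not take in Cox4i1, Cyc1 or the cytochrome c genes. RNA was sequenced in 16 libraries, 2 for each of 8 groups, from cells kept in either of 2 media and sampled at 0, 12, 24 or 40 h of exit. Both media held LIF and 2i, the GSK3 inhibitor CHIR99021 at 3 uM and the MEK inhibitor PD0325901 at 1 uM. One, labelled serum/LIF+2i, had 10% serum in knockout DMEM, and cells from it are called serum cells here. The other, labelled 2i/LIF, was a serum-free mix of DMEM/F-12 and Neurobasal with N-2 and B-27. Exit was started by a change into serum-free medium lacking 2i and LIF, and for serum cells that medium was a mix of glutamine-free DMEM and Neurobasal with N-2, B-27 and 2 mM glutamine. Cells grew on gelatin-coated plates after a switch from serum and LIF alone, and the 0 h libraries were the controls of each medium. The exit media of the arms are described differently, so the medium of maintenance and the medium of exit cannot be told apart in comparisons between arms. Nothing in the labels says that the libraries of a group came from separate cultures, so the p-values measure only the spread between these libraries, which may be technical.

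The respiratory chain passes electrons from NADH (complex I) and succinate (complex II) through complex III to complex IV, which reduces oxygen, and the proton gradient so built drives the ATP synthase, complex V. Complexes I, III, IV and V are each assembled from subunits made in the cytosol and a few hydrophobic subunits translated inside mitochondria, whereas every subunit of complex II is nuclear. Mitochondrial messenger RNAs are cut from long transcripts of both strands of a circular genome present in many copies per cell, so their level is set apart from that of nuclear genes. Naive embryonic stem cells are known to use both respiration and glycolysis, and cells of the later primed state rely more on glycolysis.

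The labelled cell type was checked first. All 8 embryonic stem cell markers were detected, with a summed level of 2289 to 5324 normalised counts (CPM, scaled by library size and TMM factor) over the 8 groups. Nanog and Esrrb, factors of the naive state, fell in both media by 40 h (Nanog log2 fold change -4.58 and -5.69). Zfp42 (-2.82 and -3.31), Sox2 (-1.34 and -1.48) and Dppa5a (-1.15 and -1.17) also fell in both. Utf1 rose in both (4.33 and 2.99). Tdgf1 rose in 2i/LIF (0.36) and fell in serum cells (-0.38). Pou5f1 was called in neither (-0.01 and -0.07). The sum therefore joins markers that moved in opposite directions. The 8 fibroblast markers summed to 4.74 to 19.99 CPM over the groups, with Postn at 0 in every library, and the 8 primitive endoderm markers to 3.5 to 18.39 CPM. Both sums were higher at 40 h than at 0 h: 19.99 against 16.9 CPM in 2i/LIF and 13.63 against 7.93 in serum cells for the fibroblast markers, and 13.6 against 6.48 and 18.39 against 6.68 CPM for primitive endoderm. Dcn went from no counts at 0 h to a mean of 11.2 and 4.74 CPM at 40 h, Dab2 from 1.12 to 8.43 and from 2.72 to 9.77 CPM, and Thy1 and Cubn also rose in both media, while Pdgfrb fell in both. Pdgfra fell in 2i/LIF (log2 fold change -1.45), with a value of -0.10 in serum cells. Col1a1 rose in serum cells (1.38), with a value of 0.75 in 2i/LIF. Gata4 (-0.53 and 0.61) and Col1a2 (-0.96 and 1.44) passed an adjusted p under 0.05 in neither medium, and Gata6 had at most 12 counts in a library. Of the other markers, Postn, Lum and Col3a1 and Sox17, Sox7 and Foxa2 had 10 counts or fewer in every library. The part of such cells in the 40 h differences was not tested. Library totals ran from 5931381 to 11142744 counts. Ribosomal RNA took 0.468% to 1.77% of counts, most in replicate 1 of serum cells at 24 h, a group whose replicates also differed most from each other (chi-square per degree of freedom 5.42 over genes, against 1.39 to 3.14 in the other groups).

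Not every mitochondrial gene could be measured. COX2, COX3, ATP6, ATP8 and ND4L had 4, 5, 3, 1 and 12 counts in all 16 libraries together, of 127265895 counts, while COX1 averaged 82315 counts per library. ND3 had 2243 counts in all. These genes lie in a stretch of the mitochondrial genome that is also present on chromosome 1, at chr1:24611535-24616197 (GRCm38, minus strand, 4663 bases), where the GENCODE annotation holds 7 unprocessed pseudogenes and none of them is a row of the count table. The first 60 bases of COX2 and ND3 are shown, 5′ to 3′ from the GENCODE transcripts, beside the copies to make the likeness visible. COX2 is at chrM:7013-7696 and ND3 at chrM:9459-9806, and their copies are at chr1:24614885-24615565 and chr1:24612775-24613119. Capitals mark the only base that differs.

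COX2: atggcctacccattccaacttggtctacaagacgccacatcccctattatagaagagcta

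Gm28661: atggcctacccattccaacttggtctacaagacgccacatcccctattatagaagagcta

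ND3: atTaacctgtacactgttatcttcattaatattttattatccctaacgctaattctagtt

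Gm28438: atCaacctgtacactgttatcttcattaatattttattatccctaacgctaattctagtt

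COX2 and Gm28661 were identical over 681 aligned bases, as were ATP6, COX3 and ND4L and their copies over 678, 783 and 294 bases. ND3 differed from Gm28438 by 1 substitution, T3C, counted from the first base of the gene, and ND4 matched its copy over its first 876 bases. The last 492 bases of COX1 differed from Gm29216 at 6 positions, all between base 1056 and base 1066. In words of 50 bases, 100% of COX2, 99.9% of COX3, 99.5% of ATP6, 98.8% of ND4L and 98% of ND3 also occur in a transcript of another gene. The shares were 62.2% for ND4, 51.1% for COX1, 8.2% for ND2, 7.6% for ND5 and 0% for ND1, CYTB and ND6. ATP8 has no annotated copy. It starts between COX2 and ATP6 and runs into ATP6 (chrM:7766-7969), and the interval between the copies of COX2 and ATP6 on chromosome 1 has the same length as on the mitochondrial genome, 233 bases. How reads with several matches were handled is not given in the sources used here, and the part of the copies in the low counts was not tested.

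**Figure D1:**
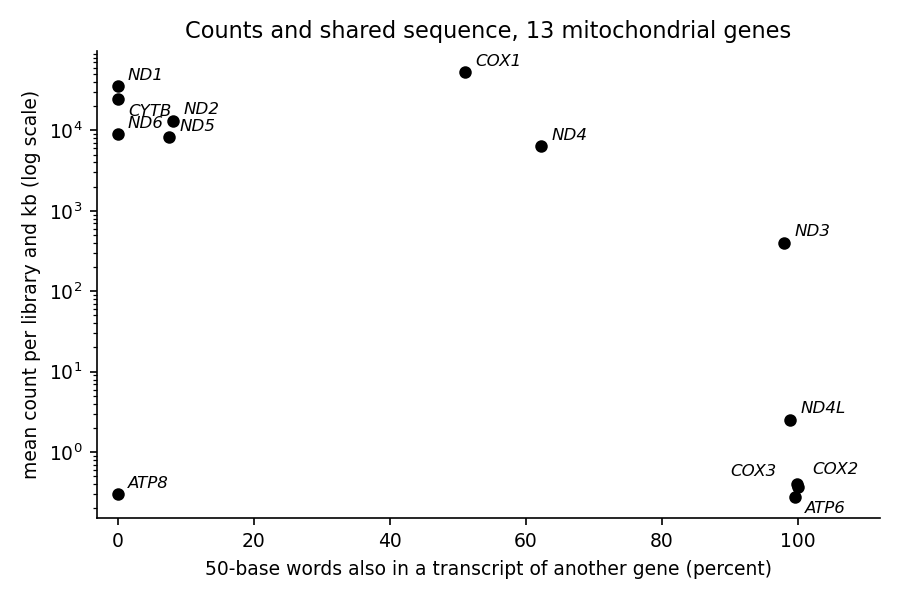
Mean count per library and kilobase (y axis, log scale) of the 13 mitochondrial genes against the percent of their 50-base words that also occur in a transcript of another gene (x axis). COX2, COX3, ATP6 and ND4L sit at the lower right with 98.8% or more of their words shared, and ATP8, with no annotated copy, lies at the lower left.

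Among the nuclear genes, 69 of the 96 members matched to GENCODE shared under 10% of their 50-base words, mitochondrial genes included. The largest nuclear shares were 68.5% for Atp5l, 66.6% for Ndufab1 and 56.2% for Atp5g1, all with processed pseudogenes. Ndufb4 shares 37% of its words, mostly with Ndufb4c, which GENCODE annotates as a processed pseudogene, so the counts of Ndufb4, Ndufb4b and Ndufb4c are uncertain. Uqcr11 and Cox8b had 2 and 1 counts in all libraries and Cox8c had 38. With these 3 and the 5 mitochondrial genes left out for low counts, 90 members were tested: 8 mitochondrial and 82 nuclear.

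At the start of exit in 2i/LIF, COX1 stood highest per kilobase of transcript, at 9770 CPM per kb, followed by ND1 at 5976, CYTB at 3566 and ND2 at 2159. The highest nuclear members were Atp5b and Atp5a1, the catalytic beta and alpha subunits of ATP synthase, at 1319 and 690.3 CPM per kb. Mitochondrial members took 3.14% and 3.16% of all counts in the 0 h libraries of 2i/LIF and 2.2% and 2.15% at 40 h. The share in serum cells was 2.74% in both 0 h libraries and 1.59% and 1.7% at 40 h. Nuclear members moved less, from 1.27% in both 0 h libraries to 1.14% and 1.14% at 40 h in 2i/LIF, and from 1.26% and 1.27% to 1.07% and 1.05% in serum cells.

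**Figure D2:**
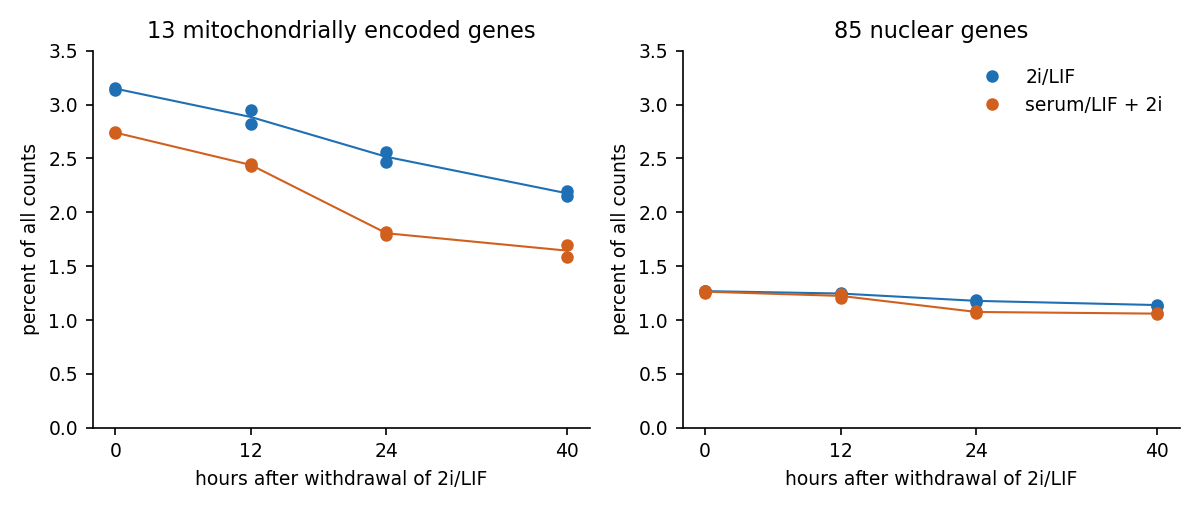
Percent of all counts (y axis) taken by the 13 mitochondrially encoded members (left) and the 85 nuclear members (right) against hours of exit (x axis); points are libraries, lines join group means, blue is 2i/LIF and orange serum/LIF+2i. The mitochondrial share lies lower in serum cells at each time and ends between 1.59% and 2.2% at 40 h.

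The ratio of mitochondrial to nuclear counts within a library does not depend on scaling between libraries. In 2i/LIF the ratio was 2.47 and 2.49 at 0 h and 1.92 and 1.9 at 40 h. In serum cells it was 2.18 and 2.16 at 0 h and 1.49 and 1.61 at 40 h. The libraries of the groups did not overlap in any of the 4 comparisons. On the log2 scale the ratio fell by 0.38 in 2i/LIF and by 0.48 in serum cells over 40 h, and it was lower in serum cells by 0.19 at 0 h (-0.19) and by 0.30 at 40 h (-0.30). The pooled SD within the 8 groups was 0.0372. The ratio is a score over chosen genes and is given as a description, with no p.

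On the mitochondrial side the ratio leaned on 1 gene. COX1 gave 47.1% and 46.3% of mitochondrial counts at 0 h in 2i/LIF, and without it the difference in log2 ratio was -0.266 in 2i/LIF and -0.274 in serum cells. With members of 10% or more shared words left out, which also removes COX1, the difference was -0.281 in both media. On the nuclear side Atp5a1 and Atp5b together gave 30.5% to 35.0% of counts over the 16 libraries. The ratio was not worked out without them.

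All 8 tested mitochondrial genes were lower at 40 h than at 0 h in both media. Of all 14288 genes tested, 68.8% were called in 2i/LIF (34.7% lower) and 70.5% in serum cells (35.3% lower), a call being an adjusted p under 0.05 in edgeR's quasi-likelihood test. The median log2 fold change of the 8 genes was -0.61 in 2i/LIF and -0.70 in serum cells, against 0.01 and 0.00 over all genes tested. In bulk RNA, fewer cells with high levels and less RNA per cell cannot be told apart.

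COX1, the catalytic subunit of complex IV, was at 15130 and 15060 CPM at 0 h in 2i/LIF, 13520 and 12770 at 12 h, 10810 and 11230 at 24 h, and 9100 and 8998 at 40 h. Serum cells had 13010 and 13420, 10630 and 10920, 7977 and 7722, and 6054 and 6389 CPM of it at the same times. Each later group lay wholly below the one before it in its medium. The log2 fold change over 40 h was -0.74 (SE 0.03, adjusted p = 1e-47) in 2i/LIF and -1.09 (SE 0.03, adjusted p = 1.18e-63) in serum cells.

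CYTB, which carries haem groups of complex III, was not called in the first 12 h in either medium. It was at 4017 and 4142 CPM at 0 h and 4077 and 3968 at 12 h in 2i/LIF, and at 4276 and 4084, then 4086 and 4113 CPM in serum cells, so the groups overlapped (adjusted p = 0.628 and 0.475). By 40 h it was at 3284 and 3167 CPM in 2i/LIF and at 2660 and 2837 in serum cells. For serum cells the called step came between 12 and 24 h (log2 fold change -0.51, adjusted p = 1.35e-30), and 40 h overlapped 24 h (adjusted p = 0.0854).

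The complex I genes differed among themselves. On the log2 scale ND1 fell by 0.49 in 2i/LIF and by 0.58 in serum cells, ND2 by 0.40 and 0.39, and ND4 by 0.37 and 0.62. ND5 fell by 0.76 and 0.78. ND6, the one gene read from the other strand, which overlaps ND5, fell by 0.82 and 0.90, from 900 and 899 to 518 and 500 CPM in 2i/LIF and from 589 and 681 to 299 and 382 CPM in serum cells. ND3 went from 193 and 314 counts to 85 and 71 in 2i/LIF and from 159 and 184 to 130 and 85 in serum cells, which is 33.3 and 47.7 to 10.7 and 9.65 CPM and 23.4 and 27 to 11.2 and 8.23 CPM. Its few counts belong to a sequence with a near-identical copy. The 3 genes with no shared words, ND1, CYTB and ND6, all fell in both media. The strand setting of the counts is not given, so the strand behind the ND6 counts is not known.

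Within a library COX1 also fell relative to CYTB. The log2 ratio of their counts was 1.91 and 1.86 at 0 h and 1.47 and 1.51 at 40 h in 2i/LIF, and 1.61 and 1.72, then 1.19 and 1.17, in serum cells. The difference over 40 h was -0.399 and -0.481, so mitochondrial genes did not move as 1 block.

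The nuclear members fell less. Of 82 tested, 44 were lower and 6 higher at 40 h in 2i/LIF, and 57 were lower and 4 higher in serum cells. The share called in either direction was below that of all genes in 2i/LIF (61% against 68.8%). The members leaned to lower calls, while of all genes 34.7% were lower and 34.1% higher in 2i/LIF, and 35.3% each way in serum cells. The median log2 fold changes of the members were -0.16 and -0.29. The media have separate controls: 42 members were lower in both, which is 42 of the 44 and 42 of the 57, and 3 were higher in both. The share of all genes lower in both media was not worked out, so this overlap is not read as a trait of the members. The falls of nuclear members were mostly small, since 12 members in 2i/LIF and 25 in serum cells were called lower with a log2 fold change of at least 0.5 in size.

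**Figure D3:**
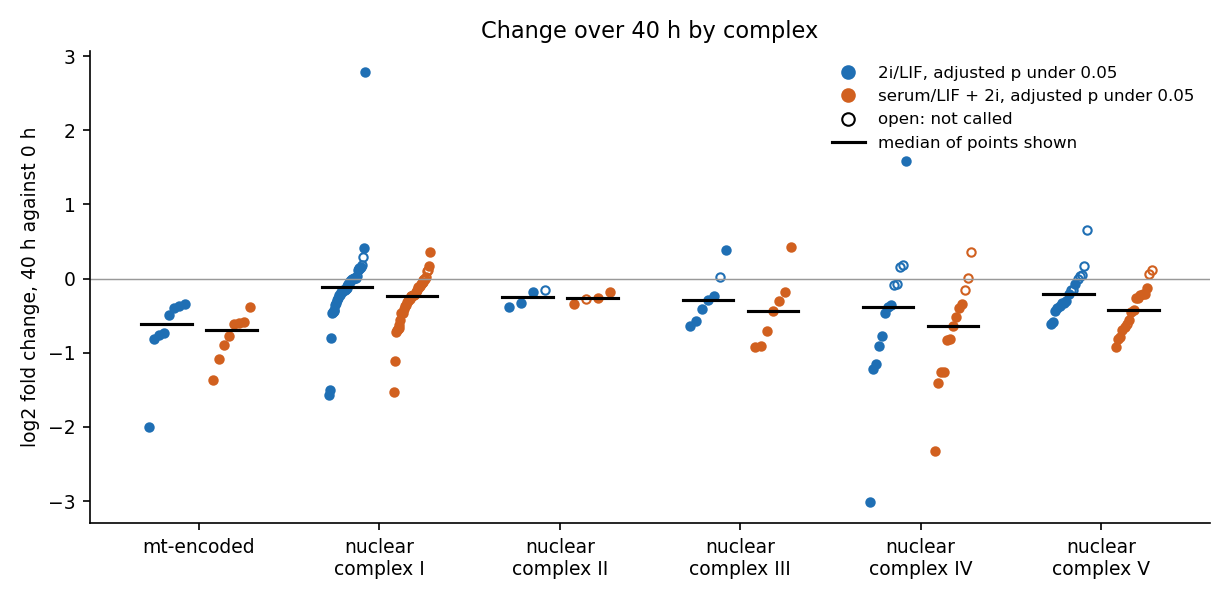
Log2 fold change at 40 h against 0 h (y axis) of the tested members by genome and complex (x axis) in 2i/LIF (blue) and serum/LIF+2i (orange); filled points passed an adjusted p under 0.05 in edgeR, bars are medians of the points shown, and Cox6a2, with no counts at 0 h, is left out. The mitochondrial points all lie below 0, and nuclear complex IV spans the widest range.

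Nuclear complex I had 18 of 40 members lower and 3 higher in 2i/LIF (median -0.12), and 24 lower and 2 higher in serum cells (median -0.23). The 7 core nuclear subunits, among which are the carriers of the flavin and the iron-sulphur clusters, had 3 lower in each medium (medians -0.07 and -0.01). Of the 33 accessory subunits 15 and 21 were lower (medians -0.13 and -0.27). Of all genes tested, 34.7% and 35.3% were lower. In 2i/LIF the shares of the core, 3 of 7, and of the accessory subunits, 15 of 33, were alike. The grouping into core and accessory subunits was made after values were seen, so no contrast between them is drawn. Ndufa2, an accessory subunit, was among the few that rose, from 53.6 and 52 to 66.4 and 74.7 CPM in 2i/LIF and from 61.4 and 59 to 79.6 and 74.3 CPM in serum cells (log2 fold change 0.42 and 0.36, adjusted p = 1.38e-06 and 3.23e-06). Its gene overlaps Tmco6, which rose by 1.09 and 1.04 on the log2 scale. Ndufs8, an iron-sulphur subunit, rose in serum cells by 0.17 (adjusted p = 0.0234), with a value of 0.00 in 2i/LIF, and lost the call when replicate 1 or 2 at 0 h or replicate 2 at 40 h was left out (adjusted p 0.0717 to 0.0844).

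Ndufa4l2, a relative of Ndufa4 known to respond to hypoxia, had 1 and 2 counts at 0 h and 17 and 10 at 40 h in 2i/LIF (adjusted p = 0.000624), and 14 and 5, then 13 and 16 counts in serum cells (adjusted p = 0.896). Its gene overlaps Shmt2, which rose by 0.43 and 1.19 on the log2 scale.

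The largest falls among nuclear members of complex I were of Ndufb4c and Ndufb4b in 2i/LIF and of Ndufb4c and Ndufb4 in serum cells, and they rested on few counts. Ndufb4 was at 4.31 and 5.16 CPM at 0 h and 2.88 and 2.58 at 40 h in 2i/LIF, and at 6.76 and 4.11, then 2.24 and 2.81, in serum cells. Its log2 fold changes were -0.80 (adjusted p = 0.019) and -1.11 (adjusted p = 0.000239). Leaving out replicate 2 at 0 h or at 40 h ended the call in 2i/LIF (adjusted p = 0.155 and 0.0825) and leaving out replicate 1 at 0 h ended it in serum cells (adjusted p = 0.0823). Ndufb4b had 22 counts in the 0 h libraries and 9 at 40 h in 2i/LIF, and Ndufb4c had 21 and 9, with 20 and 11 in serum cells. Ndufb4b had 11 counts at 0 h and 19 at 40 h in serum cells, where it was not called (log2 fold change 0.10, adjusted p = 0.893). The calls of Ndufb4b in 2i/LIF and of Ndufb4c in both media were lost in the DESeq2 test (adjusted p 0.0684 to 0.0914). Ndufb4b passed the low-count filter through libraries of 0 and 12 h in 2i/LIF, so a fall there was built in. Ndufb4c passed it through libraries of 0 and 12 h, so its falls were partly built in too.

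Complex II, succinate dehydrogenase, shares no subunit with the mitochondrial genome. Sdha, its flavoprotein, went from 396 and 381 to 293 and 301 CPM in 2i/LIF and from 334 and 312 to 292 and 277 in serum cells (log2 fold change -0.39 and -0.18). Sdhb, its iron-sulphur protein, fell by 0.32 and 0.35 on the log2 scale, and the membrane anchor Sdhc fell by 0.18 and 0.25. The Sdhc call in 2i/LIF was lost without replicate 2 at 0 h (adjusted p = 0.0732) and with library size as the only scaling (adjusted p = 0.0975). Sdhd, the other anchor, was at 16.7 and 14.3, then 13.7 and 14.1 CPM in 2i/LIF, and at 13.1 and 17.2, then 12 and 13.2 CPM in serum cells, and passed the test in neither.

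In complex III, 5 of 7 tested nuclear members were lower and 1 higher in 2i/LIF, and 6 were lower and 1 higher in serum cells. Uqcr10, a small subunit, went from 167 and 172 to 115 and 114 CPM in 2i/LIF and from 194 and 187 to 99.97 and 100.3 in serum cells (log2 fold change -0.57 and -0.93). Uqcrb, another small subunit, fell by 0.64 and 0.91 (43.2% of its words are shared with other genes). Uqcrq, also a small subunit, went the other way, from 111 and 118 to 153 and 145 CPM and from 117 and 103 to 147 and 149 CPM, with 0 h wholly below 40 h in both media (log2 fold change 0.39 and 0.43, adjusted p = 3.46e-09 and 1.43e-11). Gdf9, which overlaps it, had at most 5 counts in a library. The core proteins Uqcrc1 and Uqcrc2 fell by 0.28 and 0.41 in 2i/LIF and by 0.30 and 0.44 in serum cells.

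Complex IV held the largest falls. Cox7a1, known as the heart and muscle form of subunit VIIa, went from 24 and 29.5 CPM at 0 h to 17.3 and 13.9 at 12 h, 8.61 and 9.27 at 24 h, and 3.13 and 3.53 at 40 h in 2i/LIF. It started lower in serum cells, at 12.6 and 13.1 CPM, and ended at 3.02 and 2.03. Its log2 fold changes were -3.01 (SE 0.19) and -2.33 (SE 0.21). Cox7a2, the form found in most tissues, fell by 0.36 (adjusted p = 0.00114) and by 0.63 (adjusted p = 4.54e-09). Its call in 2i/LIF was lost without replicate 2 at 0 h (adjusted p = 0.164). Cox7a2l, a relative that acts in supercomplexes, fell by 0.46 and 0.34.

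The abundant subunits of complex IV fell as well. Cox6b1 went from 299 and 319 to 137 and 143 CPM in 2i/LIF and from 307 and 288 to 113 and 111 in serum cells (log2 fold change -1.15 and -1.41, adjusted p = 2.61e-46 and 3.88e-56). Cox5a went from 292 and 276 to 155 and 146 CPM and from 343 and 331 to 142 and 138 CPM (-0.91 and -1.26). Cox6a1 fell by 0.77 and 0.83. Cox6b2, the testis form of Cox6b1, went from 62.4 and 61.8 to 27.4 and 26 CPM and from 51.6 and 51.7 to 22.6 and 20.4 CPM (-1.22 and -1.26).

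Some isoforms of complex IV rose from low levels. Cox6a2, the heart and muscle form of Cox6a1, had no counts at 0 h in either medium. It had 16 and 27 counts at 24 h and 72 and 62 at 40 h in serum cells, where it reached 6.11 CPM over the group, at least 27.7-fold higher than the level of 3 counts in the 2 libraries at 0 h. In 2i/LIF it had 2 and 6 counts at 40 h, at least 2.1-fold higher, and the call there was lost without replicate 2 at 0 h (adjusted p = 0.0615) or replicate 2 at 40 h (adjusted p = 0.108). It passed the low-count filter through the late serum cells libraries, so a difference there was built in. Cox7b2, the testis form of Cox7b, went from 14 and 5 counts to 43 and 28 in 2i/LIF (log2 fold change 1.58, adjusted p = 0.000147, or 0.0571 without replicate 2 at 0 h) and from 4 and 8 to 16 and 9 in serum cells (0.36, adjusted p = 0.556). Cox8a passed in serum cells (-0.40) and had a value of -0.08 in 2i/LIF (adjusted p = 0.124).

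**Figure D4:**
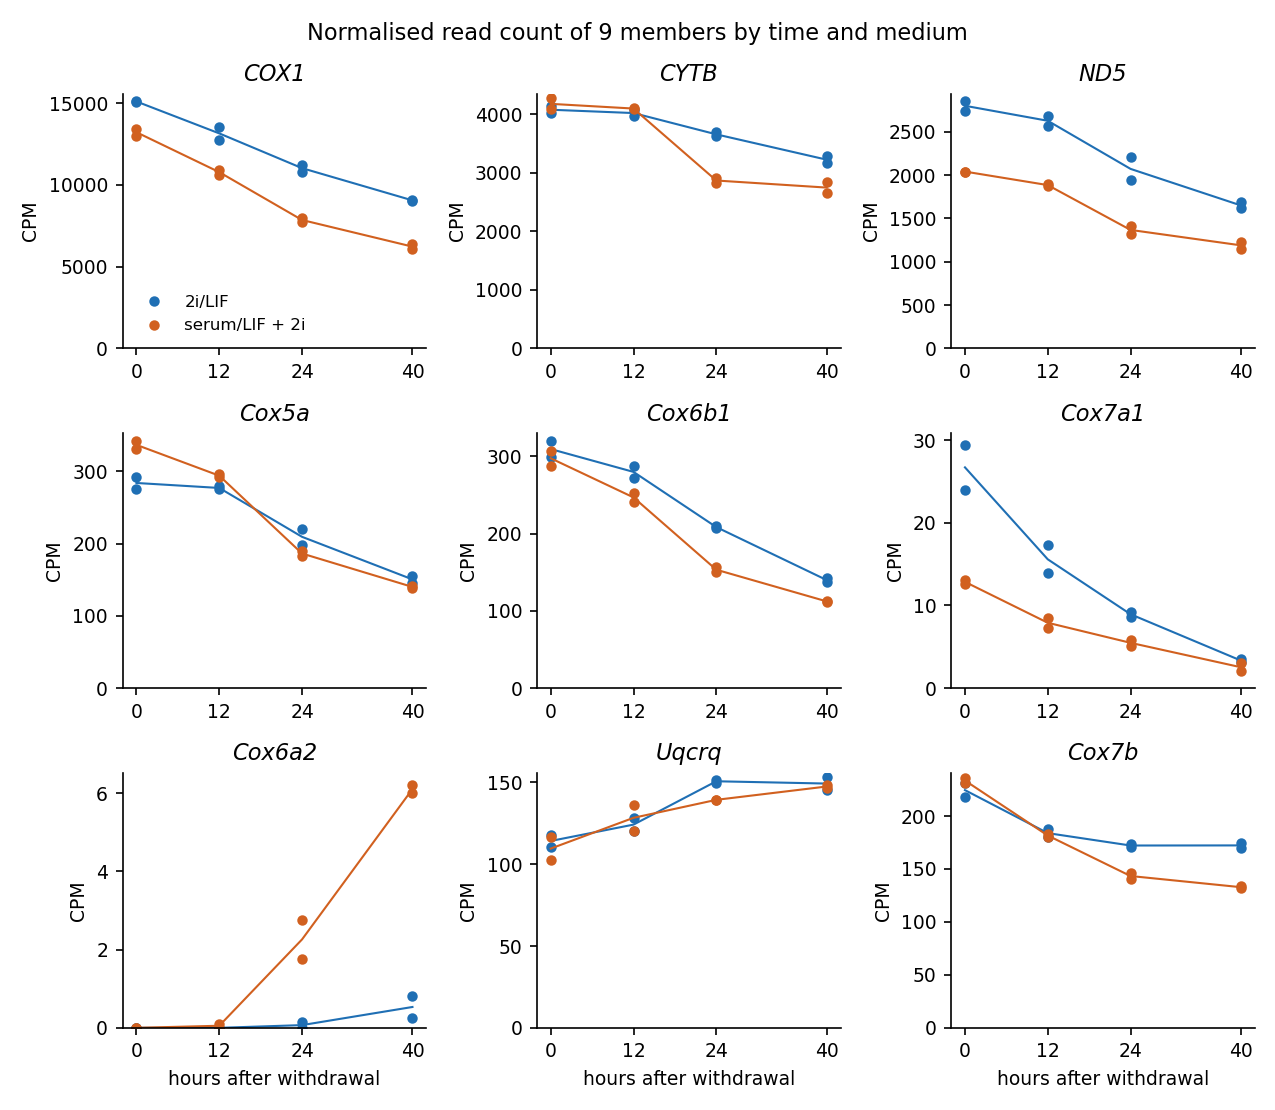
Normalised read count in CPM (y axes, from 0) against hours of exit (x axes) for 3 mitochondrial members, COX1, CYTB and ND5, and 6 nuclear members; points are libraries, lines join the means of 2 libraries, blue is 2i/LIF and orange serum/LIF+2i. Cox6a2 and Uqcrq rise while the others fall, and the CYTB libraries of 0 and 12 h overlap.

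In complex V, 10 of 17 members were lower in 2i/LIF and 14 in serum cells, and none was called higher in either (0 at an adjusted p under 0.05 in edgeR). Atp5mpl, a small membrane subunit, went from 111 and 108 to 74.9 and 67.8 CPM in 2i/LIF and from 116 and 105 to 59 and 58 in serum cells (log2 fold change -0.61 and -0.92). Atp5j2, subunit f, fell by 0.39 and 0.81. Of the genes Atp5g1, Atp5g2 and Atp5g3, which encode the same mature c subunit of the rotor, Atp5g1 fell by 0.58 and 0.26 and Atp5g3 by 0.30 and 0.22. Atp5g2, at 1.82 to 4.73 CPM, had values of 0.66 and 0.11 and was not called (adjusted p = 0.073 and 0.727). The Atp5g1 call in serum cells was lost without replicate 2 at 0 h (adjusted p = 0.0905) or replicate 1 at 40 h (adjusted p = 0.133).

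The called falls were spread differently over time in the media. Libraries of 24 and 40 h were also deeper in serum cells, at 9065257 to 11142744 counts, than in 2i/LIF, at 6629047 to 7858428. The part of depth in the numbers of calls was not tested. The comparisons with 0 h share their control libraries, so steps between later times are given too. In 2i/LIF, 16 nuclear members were lower at 12 h, 31 at 24 h and 44 at 40 h (of all genes, 44.7%, 58.8% and 68.8% were called, 23.7%, 29.6% and 34.7% lower and 21%, 29.2% and 34.1% higher), with 3, 4 and 6 higher. In serum cells the numbers lower were 23, 52 and 57 (51.2%, 64.4% and 70.5% of all genes called, 25.9%, 32% and 35.3% lower and 25.3%, 32.4% and 35.3% higher), with 6, 4 and 4 higher. At 12 h the 16 of 82 in 2i/LIF lie below the 23.7% of all genes. The 23 of 82 in serum cells lie near 25.9%, so the 12 h numbers are not read as a fall of the members. Between 12 and 24 h in serum cells, 54 nuclear members and all 8 mitochondrial genes were lower (48.4% of all genes called, 24.2% lower). In 2i/LIF the numbers were 25 and 6 (35.1% called, 17.7% lower). Between 24 and 40 h, 24 nuclear members and 2 mitochondrial genes were lower in serum cells (50.5% of all genes called, 24.6% lower). In 2i/LIF the numbers for that step were 21 and 7 (46.7% called, 24.5% lower). The nuclear numbers of this step, 24 and 21 of 82, are close to those shares and are not read as a trait of the members. Without replicate 1 of serum cells at 24 h, which had the highest ribosomal RNA share, the counts lower between 12 and 24 h were 48 and 8, and between 24 and 40 h 20 and 2.

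Before exit, the media differed more in mitochondrial than in nuclear genes. At 0 h, 7 of 8 mitochondrial genes were lower in serum cells than in 2i/LIF, and 33% of all genes were called (18.4% lower). Their median log2 difference was -0.32. ND5 was at 2041 CPM in both serum cells libraries and 2744 and 2857 in 2i/LIF (-0.46, adjusted p = 1.8e-08). COX1 differed by -0.19, ND1 by -0.29, ND2 by -0.35, ND4 by -0.21 and ND3 by -0.70. ND6 differed by -0.50 (adjusted p = 0.0173, up to 0.114 with 1 library left out), and CYTB, at 0.04, was not called (adjusted p = 0.417).

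The nuclear members went both ways at 0 h, with 15 higher and 12 lower in serum cells, of 82 tested. Of all genes, 33% were called in this comparison (14.6% higher and 18.4% lower). The number of nuclear calls is therefore not read as a trait of the members. Their median difference was -0.01, which was 0.01 when scaled by library size only. Of the 27 called members, 3 passed 0.5 in size. Among those higher were Cox5a (0.25), Ndufb6 (0.36), Cox6c (0.23), Uqcrh (0.21), Atp5j2 (0.19), Atp5j (0.19), Uqcr10 (0.17) and Atp5md (0.34). Among those lower were Cox7a1 (-1.06), Atp5g1 (-0.52), Ndufs3 (-0.37), Ndufs8 (-0.36), Cox7a2l (-0.28), Sdha (-0.26), Atp5g3 (-0.24) and Uqcrc2 (-0.12). Ndufa4l2 had 14 and 5 counts in serum cells against 1 and 2 in 2i/LIF, and its call (adjusted p = 0.0117) was lost without replicate 1 or 2 of 2i/LIF or replicate 1 of serum cells (adjusted p = 0.101, 0.0567 and 0.33). The number of nuclear calls was 17 without replicate 1 of 2i/LIF and 14 by DESeq2. The Atp5j, Atp5md, Cox6c, Uqcr10, Ndufs3 and Uqcrc2 calls were each lost on leaving out at least 1 library.

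At 40 h the direction was nearly uniform. In serum cells, 40 nuclear members were lower and 1, Cox6a2, higher, and 7 of 8 mitochondrial genes were lower, while 27.3% of all genes were called (13.4% lower). The median differences were -0.18 and -0.41. COX1 differed by -0.54, ND4 by -0.45, ND1 by -0.38 and CYTB by -0.23, while ND3 had a value of -0.05 (adjusted p = 0.859). Without replicate 1 of 2i/LIF at 40 h, 27 nuclear members were called, and 25 by DESeq2. Length was looked at after the data were seen. Of genes under 1000 bases that are not members, 4.0% were higher and 14.8% lower at 40 h. Of those of 2000 bases and over, 17.3% were higher and 12.2% lower. Of the 59 nuclear members under 1000 bases, 1.7% were higher and 47.5% lower. The part of length in this difference was not tested. At 12 and 24 h, 11 and 39 nuclear and 5 and 8 mitochondrial members were lower. Of all genes, 30.3% and 31.1% were called at those times, 15.5% and 17% lower.

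The difference between the media in the 40 h change was tested as an interaction. It was called for 27 of 82 nuclear members, 25 of them with the lower change in serum cells, and for 4 of 8 mitochondrial genes, while 27.6% of all genes were called (12.8% lower). COX1 (-0.35, adjusted p = 1.37e-12), CYTB (-0.27, adjusted p = 4.14e-07) and ND4 (-0.25, adjusted p = 0.000746) fell further from serum cells. ND3 (0.64, adjusted p = 0.0174) fell less, a call lost in the DESeq2 test and without any 1 of 4 libraries (adjusted p up to 0.286).

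The nuclear members with the smallest adjusted p were Cox7b (-0.43, 4.54e-08), Uqcrh (-0.47, 8.78e-08), Ndufa4 (-0.45, 2.32e-07) and Atp5j2 (-0.42, 4.97e-07), all small subunits. Ndufa4, now counted with complex IV by many authors, was at 179 and 177 CPM at 0 h and 176 at 40 h in both 2i/LIF libraries, and went from 208 and 195 to 143 and 149 CPM from serum cells. Cox7b went from 231 and 218 to 175 and 170 CPM and from 236 and 232 to 134 and 132 CPM. Only Sdha (0.20, adjusted p = 0.00383) and Atp5g1 (0.32, adjusted p = 0.0318) had the opposite sign among the calls. The Sdha call was lost without replicate 2 of serum cells at 0 h (adjusted p = 0.0546), and that of Atp5g1 without any 1 of 4 libraries (adjusted p up to 0.203) and by DESeq2 (adjusted p = 0.133). For Cox6a2, at 0 in both 0 h groups, the interaction could not be estimated. At 12 and 24 h, 1 and 21 nuclear members had the lower change in serum cells and 2 and 1 the higher (9.2% and 20.8% of all genes called, 4.4% and 11% lower, 4.8% and 9.77% higher).

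**Figure D5:**
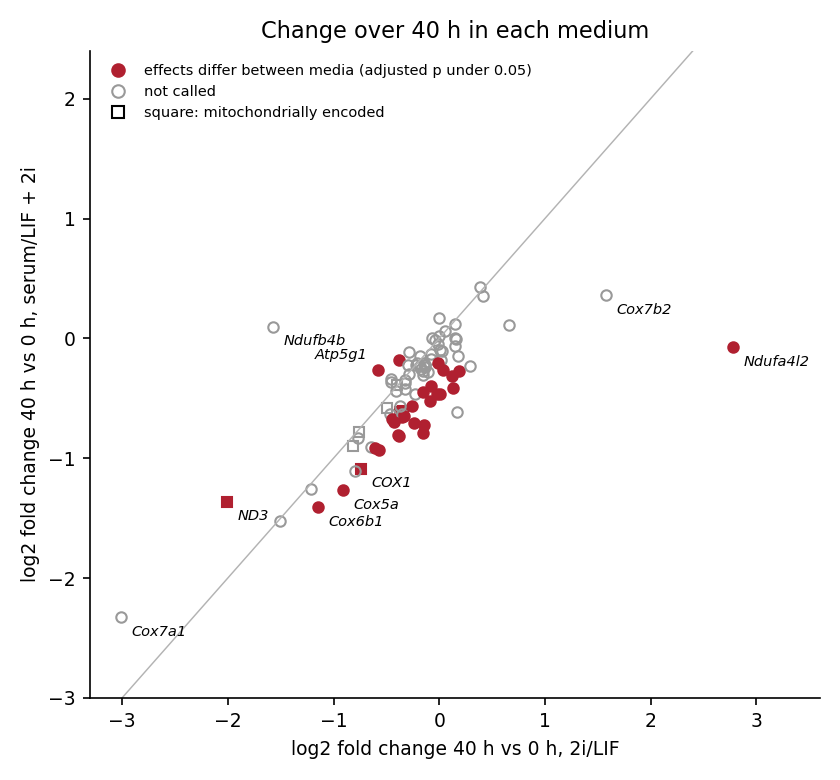
Log2 fold change at 40 h against 0 h in serum/LIF+2i (y axis) against 2i/LIF (x axis) for the tested members without Cox6a2; squares are mitochondrially encoded, red marks members whose changes differed between media in edgeR's interaction test, and the line is equality. Most red points lie below the line, with COX1 at -0.74 and -1.09, and ND3 lies above it.

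Transcript length moved with the interaction. Most nuclear members are short: 59 of 82 are under 1000 bases in the file's gene lengths. Their median interaction was -0.21, with 32.2% called lower. The 1253 tested genes under 1000 bases that are not members had a median of -0.15, with 15.5% called lower and 3.6% higher, and those of 2000 bases and over had 0.06. For the change over 40 h in 2i/LIF the short genes went apart, with a median of -0.10 for members and 0.07 for other genes, and in serum cells the medians were -0.36 and -0.07. The part of length in the interaction was not tested. This comparison was added after the data were seen.

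Other genes of the pathway did not all follow the subunits. In 2i/LIF 20 of 46 tested assembly factors rose and 10 fell over 40 h, and in serum cells 8 rose and 15 fell. For all the lists that follow, the shares over all genes tested are 34.1% higher and 34.7% lower in 2i/LIF and 35.3% each way in serum cells, and the median of all genes is 0.01 and 0.00. The medians of the assembly factors were 0.10 and -0.07. Ecsit, which helps to build complex I, rose by 0.96 and 0.98 on the log2 scale, Ndufaf5, which modifies a core subunit, fell by 0.88 and 1.25, and Foxred1 fell in serum cells (-0.67) with a value of -0.07 in 2i/LIF. Of 77 tested mitochondrial ribosomal proteins, 32 rose and 4 fell in 2i/LIF (median 0.17), and 16 rose and 23 fell in serum cells (median -0.01). Mrps27 and Mrpl34 rose in both, by 0.82 and 0.49 and by 0.90 and 0.53, and Mrps2 fell by 0.81 and 0.67.

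Of 31 genes that copy, transcribe or process mitochondrial nucleic acids, 12 rose and 9 fell in 2i/LIF, and 6 rose and 11 fell in serum cells (medians -0.05 and -0.08), with the 2i/LIF shares near those of all genes. Grsf1, an RNA-binding protein of mitochondrial RNA granules, fell by 2.67 and 2.93 on the log2 scale, more than any mitochondrial gene tested. Elac2, which cuts the 3′ ends of tRNAs out of mitochondrial transcripts, rose by 0.79 and 0.83, and Hsd17b10, a subunit of the enzyme that cuts the 5′ ends, fell by 0.42 and 0.63. Of 9 tested regulators of mitochondrial biogenesis, 2 rose and 4 fell in 2i/LIF and 5 rose and 3 fell in serum cells (medians -0.14 and 0.14). Esrrb, which is also a naive factor, fell by 4.61 and 5.87. Gabpa, an ETS factor whose gene overlaps the member Atp5j, fell by 0.75 and 0.65, and Pprc1, a coactivator, by 0.24 and 0.23. Esrra (0.48 and 0.63) and Gabpb1 (0.24 and 0.19) rose in both media. Nrf1 rose in serum cells (0.14), with a value of -0.01 in 2i/LIF, and Yy1 was called in neither (-0.10 and -0.08).

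Of 14 citric acid cycle genes, 4 rose and 6 fell in 2i/LIF, and 3 rose and 9 fell in serum cells (medians -0.08 and -0.19). Idh2, the mitochondrial NADP-dependent isocitrate dehydrogenase, fell by 1.56 and 1.89, while Suclg2, a subunit of succinyl-CoA ligase, rose by 0.81 and 1.33 and Dlst, of the oxoglutarate dehydrogenase complex, by 0.47 and 0.59. Among carriers and subunits outside the symbol rule, Cox4i1, a nuclear subunit of complex IV, fell by 0.40 and 0.61, Etfb fell by 0.37 and 0.30, and Cyct, the testis form of cytochrome c, rose by 1.40 and 2.27.

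The promoters of nuclear members were searched for 3 words known from respiratory genes, since 42 members were lower in both media: the NRF1 palindrome, in capitals in the lines that follow, CCGGAAG, bound by ETS factors such as Gabpa, and AAGATGGCG, bound by YY1. Both strands were read in RefSeq windows (GRCm38.p6) of 300 bases around the start, and 75 windows matched 70 of the 85 nuclear members. The NRF1 word was in 6.67% of member windows and 0.97% of all 32851 windows, the ETS word in 22.67% and 8.86%, and the YY1 word in 9.33% and 1.4%. Windows of the 34 members with one that were lower in both media held them in 8.33%, 16.67% and 13.89%, and those of the other members in 5.13%, 28.21% and 5.13%. The NRF1 words upstream of both the RefSeq and the GENCODE start of members lower in both media are shown in capitals with the 25 bases on either side, on the strand of the gene, as examples of the word in place.

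Cox6a1: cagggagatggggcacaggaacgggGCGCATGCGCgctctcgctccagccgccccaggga

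Ndufa11: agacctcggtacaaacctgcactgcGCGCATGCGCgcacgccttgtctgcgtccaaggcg

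The first lies at chr5:115349086-115349145 on the minus strand and the second at chr17:56717677-56717736 on the plus strand, with the word starting 162 and 60 bases before the RefSeq start. Cox6a1 fell by 0.77 and 0.83 on the log2 scale over 40 h, and Ndufa11, an accessory subunit of complex I, went from 82.9 and 77.8 to 70.3 and 63.5 CPM in 2i/LIF and from 81.1 and 75.5 to 54.8 and 51 in serum cells (-0.26 and -0.56). A match is a run of letters and was not tested as a binding site.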

How the data were processed

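The deposited table holds raw read counts per gene, which the authors made with fastp, STAR, featureCounts and mm10, per the submitters' processing notes. Versions, annotation, strand setting and the treatment of reads with several matches are not given in the sources used here. Per the labels' protocols, TRIzol was used for RNA and the TruSeq Stranded mRNA kit for the libraries. The labels' titles include 12 h samples of the serum/LIF+2i cells (serum cells) that the protocol text does not mention, and the titles were followed.

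Genes with enough counts (edgeR filterByExpr, minimum count 10, total 15) were scaled by TMM and fitted in 1 quasi-likelihood model over all 8 groups (edgeR 4.0.16, R 4.3.3, 8 residual degrees of freedom), with Benjamini-Hochberg adjustment over 14288 genes. The biological coefficient of variation was 3.19%. CPM values are TMM-scaled. DESeq2 1.42.0, other scalings and filters, a replicate block and leaving out each library were alternatives. Named genes are the mitochondrial members, complex II, the 2 largest called rises and falls per other complex (40 h in each medium, and between media at 0 h), the smallest adjusted p of the interaction, paralogues, members at 3 counts or fewer, and 3 genes per pathway list. Esrra, Gabpb1, Nrf1 and Yy1 were named besides. Members, lists and rules were chosen with earlier results of these data known. The fit was tested on simulated counts with known changes. For 40 h against 0 h in 2i/LIF it recovered 61 of 100 log2 changes of 0.5 and 82 of 100 of 1. For the interaction at 40 h it recovered 48 and 77, and false calls numbered 15 and 12 in these comparisons. A change of about 0.5 or less can therefore go uncalled. No replicate pair was within sampling noise.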

Additional observations from a re-analysis of the deposited data

Results flagged for a closer look

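The change over 40 h differed between the media, in edgeR's interaction test, for the members named here, given as the log2 change from serum cells minus that from 2i/LIF (2 libraries a group). Among mitochondrial genes the difference was -0.35 for COX1, -0.27 for CYTB, -0.25 for ND4 and 0.64 for ND3. In complexes I to III it was -0.45 for Ndufa4, -0.57 for Ndufb6, -2.86 for Ndufa4l2 (17 counts at most in a library, and not called without replicate 1 of 2i/LIF at 0 h or at 40 h or of serum cells at 0 h, adjusted p = 0.0788, 0.0802 and 0.25), 0.2 for Sdha, -0.36 for Uqcr10 and -0.47 for Uqcrh. In complex IV it was -0.35 for Cox5a, -0.26 for Cox6b1, -0.43 for Cox6c, -0.43 for Cox7b and -0.32 for Cox8a. In complex V it was 0.32 for Atp5g1, -0.27 for Atp5j, -0.42 for Atp5j2, -0.64 for Atp5md and -0.31 for Atp5mpl, the last not called without replicate 1 of 2i/LIF at 40 h (adjusted p = 0.0927) or of serum cells at 0 h (adjusted p = 0.0686). Over all genes tested, 27.6% were called in this comparison. Groups of 2 libraries are too small to test for a single outlying library.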

How the results depend on the processing

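No call or ratio reversed its direction under any alternative run, while the nuclear median between media at 0 h, -0.007, was 0.007 with library size only and 0.005 with mitochondrial genes left out of the scaling. Mitochondrial members called numbered 8, 8, 7, 7 and 4 for the 40 h change in 2i/LIF, that in serum cells, the media at 0 h, the media at 40 h and the interaction, and nuclear members 50, 61, 27, 41 and 27. Requiring a log2 fold change of at least 0.5 as well left 4, 7, 2, 2 and 1 mitochondrial and 15, 26, 3, 2 and 4 nuclear members. Leaving out members with shared sequence, an alternative chosen after seeing the data, gave 5, 5, 4, 5 and 1 mitochondrial calls of 5 tested. DESeq2 called 14, 25 and 17 nuclear members for the media at 0 h, at 40 h and the interaction; the cause was not tested. Leaving out 1 library gave 17 to 23 nuclear calls for the media at 0 h, 27 to 38 at 40 h and 21 to 27 for the interaction, and 3 to 5 mitochondrial calls for the interaction. With the replicate block the counts were 8, 8, 7, 7 and 4 mitochondrial and 50, 61, 27, 42 and 27 nuclear. Same-numbered libraries did not deviate together (correlation -0.023 to 0.033 over 28 pairs of groups), so the numbers are not taken to pair them.

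The log2 ratio of mitochondrial to nuclear counts (-0.377 in 2i/LIF, -0.484 in serum cells, -0.194 between media at 0 h, -0.301 at 40 h) was -0.547, -0.754 and -0.413 with all other counts as denominator for both changes and the media at 40 h. Without COX1 these were -0.266, -0.274 and -0.226, and with members of shared sequence left out -0.281, -0.281 and -0.224. As a mean of log2(counts + 1) it was -0.409 in serum cells and -0.253 between media at 40 h. Leaving out 1 library gave -0.54 to -0.427 in serum cells and -0.357 to -0.244 between media at 40 h. Of 2841 alternative values for single named members, 109 lost and 25 gained a call. Groups of 2 libraries limit every test.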
